A study of Mus musculus with 6 samples.

Results

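The genes described here are 6 matrix metalloproteinases (Mmp2, Mmp9, Mmp12, Mmp13, Mmp14 and Mmp19), 3 tissue inhibitors of metalloproteinases (Timp1, Timp2 and Timp3) and Acp5, the gene of tartrate-resistant acid phosphatase (TRAP), an osteoclast enzyme. They were taken by symbol from the table of gene expression and make up 10 of its 26529 genes. The table held 6 RNA-seq libraries of wild-type C57BL/6 mouse bone marrow cells, from mice aged 8 weeks, grown with 20 ng/ml of the macrophage growth factor M-CSF and 10 ng/ml of RANKL, the inducer of osteoclasts. Of these libraries, the 3 labelled OCP (osteoclast precursors) were from day 3 of culture and the 3 labelled OC (osteoclasts) from day 6. Both groups received both cytokines, no untreated culture was part of this comparison, and both stages were identified by TRAP activity per the series' design text. The labels describe no sorting of the cells and leave it unsaid whether each replicate was its own mouse or culture, so p-values measure the spread between these libraries, which may be technical.

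Matrix metalloproteinases (MMPs) are zinc-dependent proteases that cut collagens, gelatin and other proteins outside the cell. Most are made as inactive proenzymes, and TIMPs block the active enzymes by binding their catalytic site. In bone, osteoclasts dissolve the mineral with acid and digest the matrix with cathepsin K and MMPs, with MMP-9 as their most characteristic member of the family, and TRAP serves as the usual stain for these cells.

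The libraries held 33219178 to 42121216 reads assigned to genes. Levels are in RPKM, reads scaled to exon length and to the total of assigned reads, which allows comparison between genes. In the labels' own terms OC is the later stage, yet the transcripts that define osteoclasts were lower there: of 11 osteoclast markers other than Mmp9 and Acp5, all 11 fell (median log2 fold change -0.84), with a summed level of 3906 to 4141 RPKM in OCP and 2134 to 2181 RPKM in OC. The most abundant, the collagen-degrading protease Ctsk, went from 3249 ± 108 to 1711 ± 25.0 RPKM (mean ± SD, n = 3 in each group here and below). Of 10 tested macrophage markers 8 rose and 2 fell, but 3 of those that rose (Mrc1, Cx3cr1 and Ccr2) passed the filter only through OC and could be called in no other direction. The whole list's summed level was 1381 to 1450.5 RPKM in OCP and 1536 to 1603 RPKM in OC, and the most abundant, Cd68, was among those that fell, from 854 ± 31.3 to 721 ± 20.9 RPKM. In RNA from whole cultures, fewer cells of a type and less RNA per cell cannot be told apart. The part of cell composition in the results that follow was not tested.

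The members differed widely in level. In OCP, Mmp9 at 669.7 ± 24.5 RPKM and Acp5 at 642 ± 26.8 RPKM came first, followed by Mmp14 at 105 ± 4.04, Timp1 at 84.1 ± 5.50, Timp2 at 12.5 ± 0.269 and Mmp19 at 6.84 ± 0.246 RPKM. Mmp2 at 1.28 ± 0.0740, Mmp13 at 1.25 ± 0.123, Mmp12 at 0.495 ± 0.114 and Timp3 at 0.0858 ± 0.0244 RPKM formed the low end. The library ranges of 2 neighbouring pairs in this order overlapped, Mmp9 with Acp5 and Mmp2 with Mmp13. In OC the order was Mmp9, Acp5, Timp1, Mmp14, Timp2, Mmp19, Mmp13, Mmp2, Mmp12 and Timp3, and the ranges overlapped for Mmp2 with Mmp12 only. Timp1 thus stood below Mmp14 in every OCP library and above it in every OC library. Among all 26529 genes Mmp9 ranked 68 in OCP and 153 in OC, Acp5 71 and 174, and Timp1 762 and 215.

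**Figure D1:**
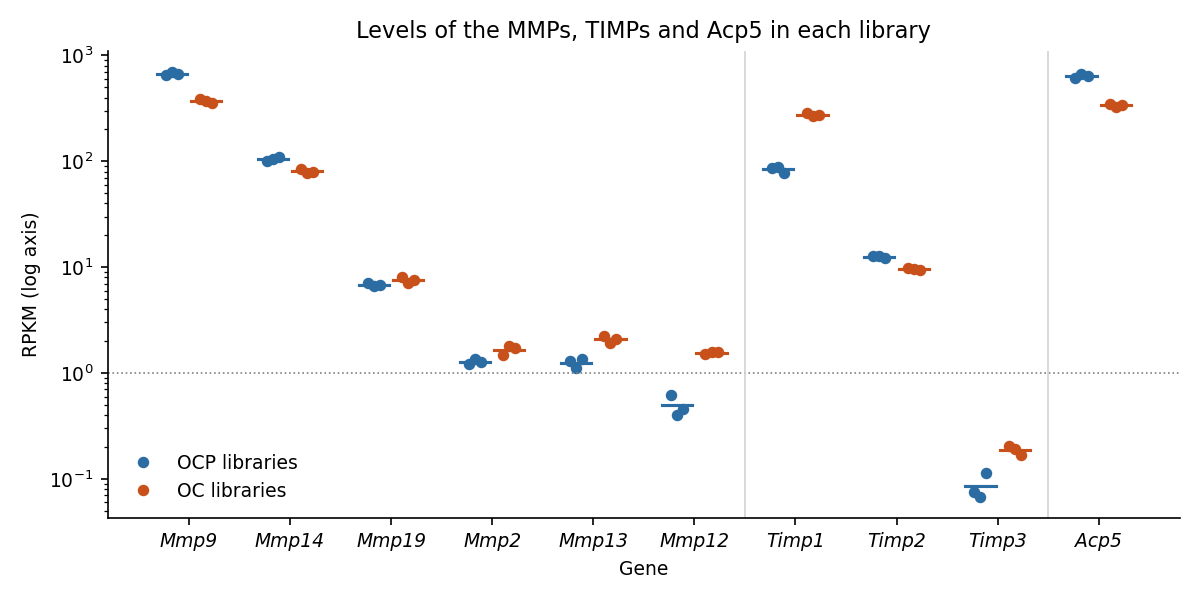
RPKM on a log axis for each of the 10 genes, with 1 point per library, a short line at the mean of each group, and a dotted line at 1 RPKM. Mmp9 and Acp5 are the highest and lower in OC, Timp1 moves from 84.1 to 276 RPKM, and Timp3 stays below the dotted line in all 6 libraries.

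For 9 of the 10 genes, 3 or more of the 6 libraries reached 1 RPKM, and these were tested with limma on log2(RPKM + 1). At an adjusted p under 0.05, Timp1, Mmp12, Mmp13 and Mmp2 rose, and Acp5, Mmp9, Mmp14 and Timp2 fell. Mmp19 did not pass the test, and Timp3 was under the filter. Over all 12301 tested genes 23.5% were called higher, 32.1% lower and 55.6% in either direction, so a call alone does not set a member apart. The counts of listed genes above and below have the same background. Mmp12 passed the filter only through its OC libraries, so the counts among tested members are given as a description. The median log2 fold change of the 9 tested members was 0.12, the value of Mmp19, beside -0.05 over all tested genes. Since Mmp12 is among the 9, this median also depends on the filter and is given as a description. The 3 OC values lay wholly above or below the 3 OCP values for 9 of the 10 members, all but Mmp19. OC was higher for 5 of them and lower for 4. Those higher include Timp3, which is not among the tested genes, and Mmp12, which passed the filter only through OC. Over the tested genes 26.7% were wholly higher and 36.0% wholly lower in OC, 62.7% in all.

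**Figure D2:**
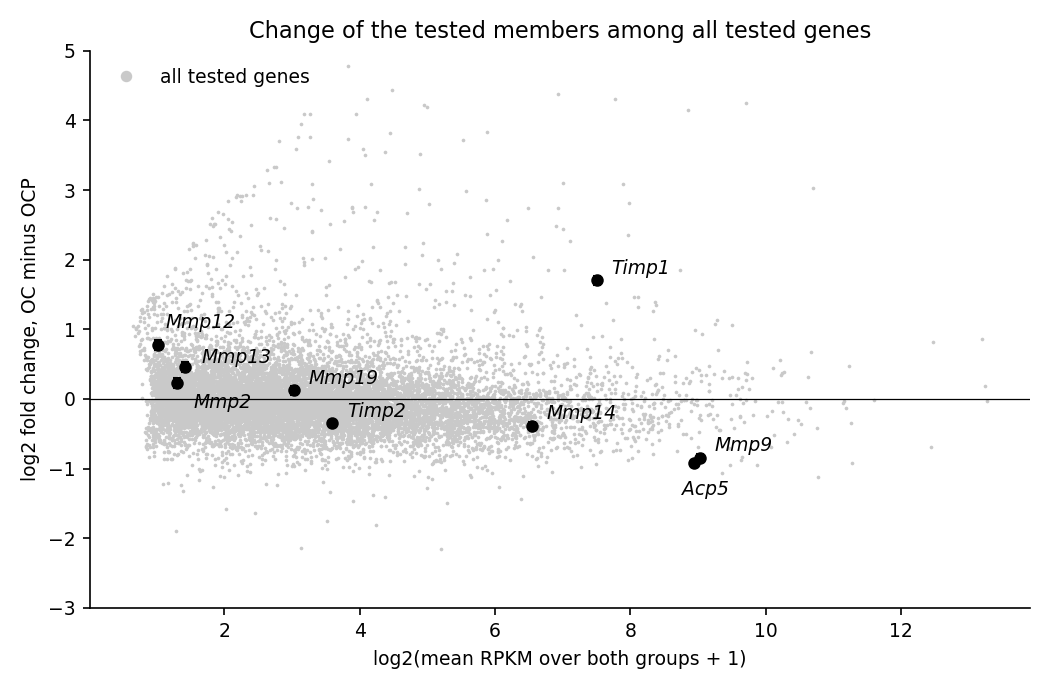
Log2 fold change (OC minus OCP on the log2(RPKM + 1) scale) against the log2 mean level for all tested genes in grey and the 9 tested members in black, with standard errors smaller than most symbols; 10 genes lie outside the plotted range. Timp1 lies highest of the members at 1.70, and Acp5 and Mmp9 lowest at -0.92 and -0.84.

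Mmp9, the gelatinase that osteoclasts secrete, fell by 0.84 on the log2 scale (SE 0.05, adjusted p = 5.0e-06). On chromosome 2 its plus-strand gene (164940780 to 164955850, GRCm38) has exons of 3539 bases. Its level was 649.7, 697 and 662 RPKM in OCP replicates 1, 2 and 3, and 389, 370.3 and 359 RPKM in OC replicates 1, 2 and 3. All OC libraries were below all OCP libraries, and the ratio of means was 1.80-fold in favour of OCP. Ranked by the size of the fall, Mmp9 was number 145 of the 12301 tested genes. It rested on 43535 to 97939 reads per library, so counting error was small beside the spread between libraries.

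Mmp2, the other gelatinase, which stromal cells usually make, was low and went the other way. It lies on chromosome 8 (92827291 to 92853420, plus strand). The OCP libraries had 1.20, 1.35 and 1.28 RPKM and the OC libraries 1.47, 1.81 and 1.70 RPKM, from 158 to 219 reads each. The groups did not overlap, and the log2 fold change was 0.22 (SE 0.07, adjusted p = 0.031). This call depended on the settings. It was lost without OC replicate 2 (adjusted p = 0.10), without OC replicate 3 (0.082), without OCP replicate 1 (0.082) and without OCP replicate 3 (0.080), with no filter on low values (0.060) and after quantile normalization (log2 fold change 0.14, adjusted p = 0.17). In a voom fit on the whole reads recovered from the table the log2 fold change was 0.42 (adjusted p = 0.013), since the pseudocount of 1 shrinks changes at this level.

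Stromal cells are a common source of Mmp2, Mmp13 and the TIMPs. All 15 genes of a stromal and osteoblast list were under the filter, with a summed level of 3.56 to 3.70 RPKM in OCP and 3.51 to 3.80 RPKM in OC. The most abundant, the collagen gene Col1a1, had 0.851 ± 0.0219 and 1.01 ± 0.116 RPKM in OCP and OC, from 204 to 248 reads per library. Col1a2 had 190 to 270 reads and Col3a1 198 to 318 reads per library, so these collagen transcripts were detected with about as many reads as Mmp2 and Mmp13. In RPKM, which allows for their longer exons, they were lower. Col1a2 had 0.447 and 0.549 RPKM and Col3a1 0.658 and 0.643 RPKM in OCP and OC. Mmp2 had 1.28 and 1.66 RPKM and Mmp13 1.25 and 2.09 RPKM. Of the osteoblast genes, Bglap, Bglap2, Sp7 and Ibsp had at most 6 reads in any library, and Alpl had 2 to 8. Runx2, another osteoblast gene of the list, was detected with 141 to 234 reads per library. All its OC values (mean 0.494 RPKM) lay below all its OCP values (mean 0.622 RPKM). The part of stromal cells in the levels of Mmp2, Mmp13 and the TIMPs was not tested. The 4 chondrocyte markers in the table summed to at most 0.181 RPKM in any library, with Comp the most abundant at 0.0734 ± 0.0128 and 0.0897 ± 0.0518 RPKM. Of 6 endothelial markers only Kdr was tested, at 1.75 ± 0.125 and 1.54 ± 0.131 RPKM, and it did not pass (adjusted p = 0.21); the list summed to 2.84 to 3.11 RPKM in OCP and 2.40 to 2.79 RPKM in OC.

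Mmp14 encodes MT1-MMP, a protease anchored in the cell membrane that cleaves collagen and, with TIMP-2 as a bridge, activates pro-MMP-2. It was the second most abundant MMP and fell in OC. Its level was 101, 105 and 109 RPKM in OCP and 84.7, 77.4 and 78.4 RPKM in OC, with no overlap (log2 fold change -0.38, SE 0.05, adjusted p = 0.00046). The gene is on chromosome 14 (54431612 to 54441265, plus strand). Timp2, the bridging inhibitor, on the minus strand of chromosome 11 (118301069 to 118355740), fell by a like amount. It had 12.6, 12.8 and 12.2 RPKM in OCP and 9.91, 9.66 and 9.33 RPKM in OC (log2 fold change -0.35, SE 0.05, adjusted p = 0.00049). The ratio of Mmp14 to Timp2 within a library ranged from 7.97 to 8.87 in OCP and from 8.02 to 8.55 in OC, so these ranges overlapped. Against Mmp2, the ratio of Mmp14 went from 82.2 ± 3.72 in OCP to 48.7 ± 7.74 in OC.

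Mmp19, a secreted MMP of broad tissue distribution, showed no change that passed the test. Its 3 OCP libraries had 7.12, 6.67 and 6.73 RPKM and its 3 OC libraries 8.00, 7.06 and 7.54 RPKM. The lowest OC value fell below the highest OCP value, and the log2 fold change was 0.12 (SE 0.06, adjusted p = 0.12). With TMM scaling it was 0.17 and passed (adjusted p = 0.038). On chromosome 10 (128790953 to 128800824, plus strand), Mmp19 shares 789 bases, 23.1% of its exon length, with Tmem198b on the opposite strand, which had 2.12 ± 0.138 and 2.40 ± 0.311 RPKM (adjusted p = 0.24). No source used here gives the strand setting of the counting, so reads in the shared part are uncertain.

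Mmp12, the macrophage elastase, and Mmp13, a collagenase best known from chondrocytes and osteoblasts, rose at low levels. Mmp12 had 0.623, 0.404 and 0.459 RPKM in OCP and 1.51, 1.57 and 1.57 RPKM in OC, a 3.13-fold ratio of means. Every OC library was well above every OCP library, and the log2 fold change was 0.77 (SE 0.08, adjusted p = 8.8e-05). Mmp13 had 1.30, 1.11 and 1.34 RPKM in OCP and 2.24, 1.94 and 2.10 RPKM in OC, again without overlap (log2 fold change 0.46, SE 0.07, adjusted p = 0.0011). On the scale of reads, where no pseudocount of 1 is added, voom gave log2 fold changes of 1.70 (SE 0.14) for Mmp12 and 0.79 (SE 0.14) for Mmp13. Their reads numbered 116 to 434 and 118 to 214 per library.

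Both genes lie in a cluster of MMP genes on chromosome 9, of which 9 were in the table over 427 kb. Mmp13 occupies 7272514 to 7283331 and Mmp12 7344381 to 7369499, both on the plus strand. Mmp12 shares 157 bases of exon with Mmp1b on the other strand, which had at most 2 reads in any library. Further along, the stromelysin Mmp3 had 4, 4 and 0 reads in OCP and 77, 94 and 86 reads in OC, or 0.0362 ± 0.0314 and 1.35 ± 0.194 RPKM (log2 fold change 1.18, SE 0.08, adjusted p = 1.4e-05). Like Mmp12 it passed the filter only through OC. The neutrophil collagenase Mmp8 was the most abundant gene of the cluster and rose from 6.57 ± 0.539 to 10.4 ± 1.60 RPKM (log2 fold change 0.58, adjusted p = 0.0024). Mmp10, Mmp27, Mmp1b, Mmp20 and Mmp7 were at or below 0.414 RPKM in every library. These 5 were not tested.

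**Figure D3:**
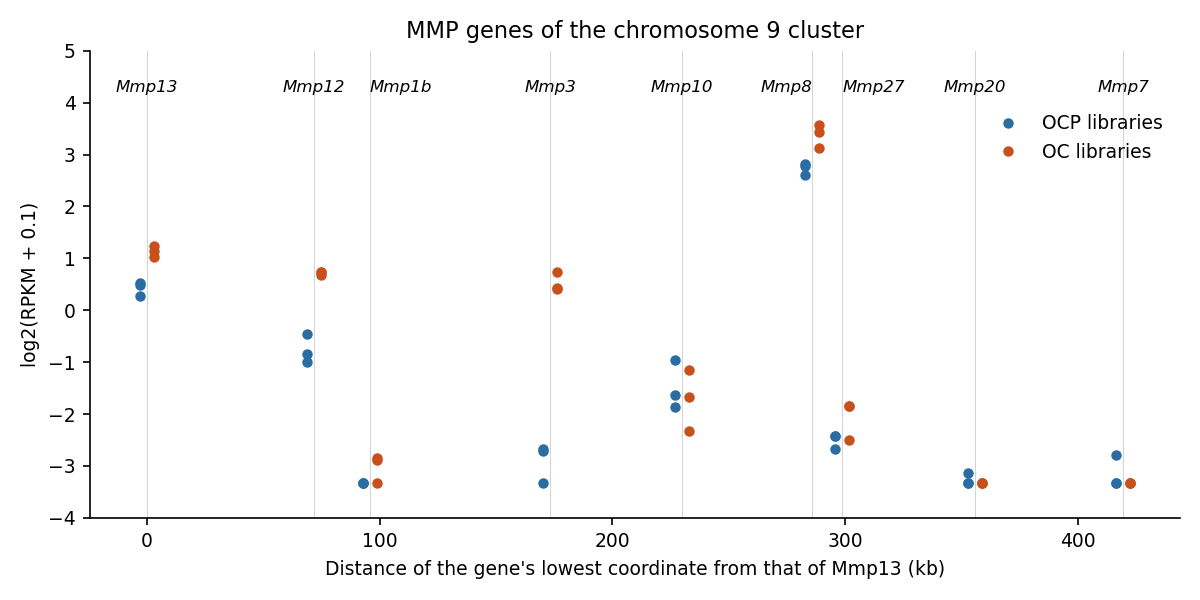
Level as log2(RPKM + 0.1) of the 9 MMP genes of the chromosome 9 cluster, plotted against the distance of each gene from Mmp13 in kb, with 1 point per library, OCP to the left and OC to the right of each gene's line. The OC points of Mmp13, Mmp12, Mmp3 and Mmp8 lie above their OCP points, and the other 5 genes are low in both groups.

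To set the start regions of rising and falling members side by side, the 250 bases before RefSeq start sites (GRCm38.p6) were searched for 4 motifs on both strands. They were TGANTCA, the site of AP-1 factors, TATAAA of the TATA box, and CATGTG and CACGTG, which basic helix-loop-helix factors bind. RefSeq entries were matched for 7 of the 10 members, and Mmp2, Mmp9 and Mmp19 were not among them. The sequences of Mmp13, of the second of 2 Mmp12 starts, of Timp1 and of the first of 3 Acp5 starts are shown 5′ to 3′, with matches in capitals, to set 3 members that rose beside Acp5, which fell.
Mmp13, chr9:7272264-7272513, plus strand: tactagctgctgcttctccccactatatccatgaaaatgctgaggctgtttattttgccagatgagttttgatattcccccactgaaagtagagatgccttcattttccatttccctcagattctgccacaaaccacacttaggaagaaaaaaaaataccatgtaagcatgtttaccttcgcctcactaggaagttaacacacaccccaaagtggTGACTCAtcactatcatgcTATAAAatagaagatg
Mmp12, chr9:7347124-7347373, plus strand: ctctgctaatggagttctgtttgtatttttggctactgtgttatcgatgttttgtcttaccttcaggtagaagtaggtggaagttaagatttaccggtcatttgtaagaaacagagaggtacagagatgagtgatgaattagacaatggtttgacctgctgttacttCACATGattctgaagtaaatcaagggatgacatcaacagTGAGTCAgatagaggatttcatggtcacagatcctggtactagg
Timp1, chrX:20869916-20870165, plus strand: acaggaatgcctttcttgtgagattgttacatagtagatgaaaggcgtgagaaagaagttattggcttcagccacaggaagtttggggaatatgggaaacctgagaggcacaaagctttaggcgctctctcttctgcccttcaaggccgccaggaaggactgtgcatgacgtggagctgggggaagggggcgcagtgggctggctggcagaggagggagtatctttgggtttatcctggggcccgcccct
Acp5, chr9:22135747-22135996, minus strand: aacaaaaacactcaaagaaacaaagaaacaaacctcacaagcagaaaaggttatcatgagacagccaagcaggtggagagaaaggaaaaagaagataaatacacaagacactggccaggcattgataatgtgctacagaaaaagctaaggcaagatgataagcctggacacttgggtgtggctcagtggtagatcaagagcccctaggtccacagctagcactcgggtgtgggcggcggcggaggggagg
Mmp13 had an AP-1 match beginning 35 bases and a TATA match beginning 16 bases before its start. The second Mmp12 start, at 7347374, had an AP-1 match 44 bases and a CATGTG match 83 bases upstream, whereas the first start, at 7344397, had no match of the 4 motifs. The windows of Timp1, Mmp14, Timp2 and Timp3 and the first 2 of Acp5 held none of these letters, and the third Acp5 window held 1 CATGTG match. Of the 250 bases of the Timp2 window, 203 lie within exons of Timp2 as counted here. Its lack of matches therefore says little about the bases before the gene. Of all 32851 start windows of this length, 6.75% held an AP-1 match, 12.4% a TATA match, 12.3% CATGTG and 6.02% CACGTG. A match is a run of letters and shows no binding.

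Timp1, a secreted inhibitor that binds pro-MMP-9 as well as active MMPs, had the largest change among the members on the log2(RPKM + 1) scale. It lies on chromosome X (20870166 to 20874735, plus strand) within the span of Syn1, with no exon base shared. The OCP libraries had 86.4, 88.2 and 77.9 RPKM and the OC libraries 289, 268 and 271 RPKM. The lowest OC value was thus more than 3 times the highest OCP value, and the log2 fold change was 1.70 (SE 0.06, adjusted p = 2.9e-07). Its rise was number 169 by size among 12301 tested genes, and 3.68% of tested genes were at least 2-fold higher and called. By voom, which adds no pseudocount of 1, the rises of Timp1 (1.75, SE 0.06) and Mmp12 (1.70, SE 0.14) were of like size. The ratios of means were 3.28 for Timp1 and 3.13 for Mmp12. Syn1, a synapsin on the opposite strand that hosts Timp1, was at 2.31 ± 0.122 and 2.43 ± 0.261 RPKM and did not pass (adjusted p = 0.62).

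Timp3, an inhibitor that binds to the extracellular matrix, was close to the detection limit. Its exons of 8144 bases held 26, 22 and 34 reads in OCP and 58, 52 and 52 reads in OC, or 0.0758, 0.0680 and 0.114 RPKM against 0.203, 0.192 and 0.168 RPKM. The groups did not overlap. In the fit of all 26529 genes without a filter the log2 fold change of RPKM + 1 was 0.13 (SE 0.04, adjusted p = 0.071), and by voom it was 1.19 (SE 0.28, adjusted p = 0.00086), where 52.2% of 15802 tested genes were called. Timp3 also passed in the unfiltered fit without trend and robust options (adjusted p = 0.019). On chromosome 10 (86300372 to 86349506, plus strand) 1733 bases of its exons, 21.3%, are shared with Syn3 on the opposite strand, which had 4 to 26 reads per library. Reads in the shared part are therefore uncertain.

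The sum of the 6 MMP members fell and that of the 3 TIMP members rose. The MMP sum was 760.5, 812 and 781 RPKM in OCP and 487, 460.1 and 449.8 RPKM in OC. The TIMP sum was 99.0, 101 and 90.2 RPKM in OCP and 299, 277 and 280.1 RPKM in OC. Within a library the ratio of the TIMP to the MMP sum was 0.123 ± 0.00738 in OCP and 0.613 ± 0.00990 in OC, 4.97-fold higher. Each sum was mostly 1 gene. Mmp9 made up 85.4% ± 0.501 of the MMP sum in OCP and 80.0% ± 0.408 in OC, and Timp1 made up 86.9% ± 0.543 and 96.6% ± 0.0943 of the TIMP sum. Without Mmp9 the MMP sum was 115 ± 3.80 and 93.0 ± 4.33 RPKM, and without Timp1 the TIMP sum was 12.6 ± 0.245 and 9.82 ± 0.305 RPKM, lower in OC. The ratio of Timp1 to Mmp9 alone changed more, 5.89-fold, and was 0.133, 0.127 and 0.118 in OCP and 0.743, 0.723 and 0.755 in OC. These are transcript ratios, given as a description with no test, and no protein or enzyme activity was measured.

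**Figure D4:**
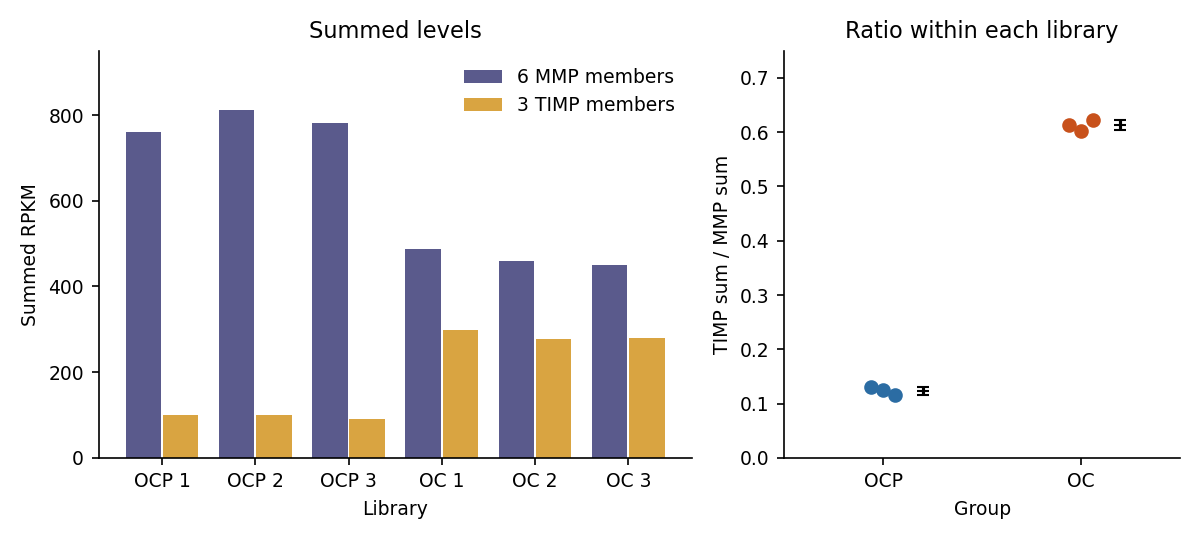
Left, summed RPKM of the 6 MMP and the 3 TIMP members in each library. Right, the ratio of both sums within each library, with the mean and SD of each group in black; it is between 0.116 and 0.130 in OCP and between 0.603 and 0.623 in OC.

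Acp5, the gene of TRAP, fell by 0.92 on the log2 scale (SE 0.05, adjusted p = 3.4e-06). It had 617, 670.1 and 639 RPKM in OCP and 350.4, 324 and 339 RPKM in OC, with no overlap and a ratio of means of 1.90-fold in favour of OCP. Its fall was number 85 by size among tested genes. The ratio of Mmp9 to Acp5 was 1.05, 1.04 and 1.04 in OCP and 1.11, 1.14 and 1.06 in OC, so it was slightly higher in every OC library. The ratio of Ctsk to Acp5 was 5.07 ± 0.369 in OCP and 5.07 ± 0.132 in OC, and these ranges overlapped. Acp5 is on the minus strand of chromosome 9 (22126727 to 22135711). A transcript on the plus strand, listed as RP23-187B11.7 (22117328 to 22137756; 6530413G14Rik, a processed transcript, in GENCODE M21), spans the whole gene and shares 137 bases of exon with it, 6.75% of the Acp5 exons. This antisense row had 123, 128 and 123 RPKM in OCP and 70.5, 69.2 and 67.4 RPKM in OC and also fell (log2 fold change -0.85, SE 0.04, adjusted p = 2.2e-06). Acp5 stood at 4.69 to 5.22 times the antisense level in all 6 libraries. Without the strand setting, reads in the shared bases cannot be assigned to one of the genes.

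No other acid phosphatase that was tested was called lower. The table held 6, of which 3 were tested, 2 rose and 1 did not pass, beside 23.5% of all tested genes called higher and 32.1% called lower. With 3 tested genes, the lack of a fall among them does not set Acp5 apart. The lysosomal Acp2, the most abundant, rose from 22.6 ± 0.761 to 28.0 ± 0.434 RPKM (log2 fold change 0.30, adjusted p = 0.00080) and Acpp, the prostatic form, from 10.3 ± 0.295 to 14.7 ± 1.19 RPKM (0.48, adjusted p = 0.00040). The cytosolic Acp1 was at 9.76 ± 0.318 and 9.30 ± 0.241 RPKM (adjusted p = 0.32). The difference between these genes and Acp5 was not tested.

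The rest of the family was mostly low. Besides the members, 16 of 18 listed MMP and TIMP genes were in the table, and 13 failed the filter, among them Timp4. Apart from Mmp3 and Mmp8 only Mmp24 was tested, a membrane-anchored MMP at 2.04 ± 0.114 and 2.02 ± 0.0515 RPKM that did not pass (adjusted p = 0.92). Since neutrophils store MMP-8 and MMP-9 in granules, their markers were read beside both genes. All 6 tested neutrophil markers rose, Mmp8 included. The 13 markers that the table held, tested or not, summed to 74.1 to 81.3 RPKM in OCP and 159 to 165 RPKM in OC. Of this, Lcn2, also made by activated macrophages, had 31.7 ± 1.48 and 95.7 ± 2.04 RPKM. Among the granule genes of this list, described after their values were seen, Ngp rose from 5.51 ± 0.842 to 7.94 ± 0.0879 RPKM (log2 fold change 0.47, adjusted p = 0.0029). Ltf, under the filter, had 0.551 ± 0.0699 and 1.08 ± 0.110 RPKM with no overlap of the groups (adjusted p = 0.0055 in the fit without a filter). Camp had 0.353 ± 0.275 and 0.473 ± 0.0562 RPKM with overlap, and Elane, Mpo and Prtn3 were at or below 0.229 RPKM in every library. The direction of this list was that of Mmp8 and opposite to that of Mmp9; its part in either was not tested.

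Genes that activate, inhibit, dock or clear MMPs changed in both directions. Of those reported here the table held 20, of which 13 were tested, 6 rose, 6 fell and 1 did not pass. The median log2 fold change of the 13 was -0.10 (-0.05 over all tested genes, of which 23.5% were called higher and 32.1% lower). Urokinase generates plasmin, a protease able to activate proMMPs. Its inhibitor Serpinb2 rose from 32.2 ± 4.89 to 48.7 ± 5.27 RPKM (0.59, adjusted p = 0.0038), and Plau, the gene of urokinase itself, fell from 33.2 ± 2.59 to 24.0 ± 0.618 RPKM (-0.45, adjusted p = 0.00051). Serpine2, a serpin that also inhibits urokinase, fell from 4.05 ± 0.0346 to 3.19 ± 0.3605 RPKM (-0.27, adjusted p = 0.013). The urokinase receptor Plaur was at 30.6 ± 2.92 and 28.5 ± 2.10 RPKM and did not pass (adjusted p = 0.33).

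Furin, the convertase that activates membrane-type MMPs, rose from 13.2 ± 0.529 to 18.8 ± 0.231 RPKM (0.48, adjusted p = 8.7e-05). Bsg, which encodes the MMP inducer basigin, was the most abundant gene of the list and rose from 318 ± 14.9 to 488 ± 31.1 RPKM (0.62, adjusted p = 7.2e-05). Thbs1, a matrix protein that binds MMPs, rose from 8.77 ± 0.372 to 15.6 ± 0.751 RPKM (0.76, adjusted p = 1.8e-05), and Lrp1, the endocytic receptor that clears MMP-9 and TIMP complexes, from 38.5 ± 1.54 to 47.8 ± 1.88 RPKM (0.31, adjusted p = 0.0013). Among those that fell, Itgb3, the beta chain of the osteoclast vitronectin receptor, went from 75.4 ± 3.65 to 43.5 ± 1.15 RPKM (-0.78, adjusted p = 8.9e-06) and Cd44, which can hold MMP-9 at the cell surface, from 96.4 ± 0.477 to 80.7 ± 0.586 RPKM (-0.26, adjusted p = 0.00068). Reck, a membrane-anchored MMP inhibitor, had at most 0.0384 RPKM in any library and was not tested. Pcsk7, a convertase related to furin, was called at 11.0 ± 0.556 and 12.4 ± 0.547 RPKM (adjusted p = 0.046), and the call was lost with no filter, without trend and robust options, and when any OC library, OCP replicate 1 or OCP replicate 3 was left out, with adjusted p between 0.050 and 0.16.

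**Figure D5:**
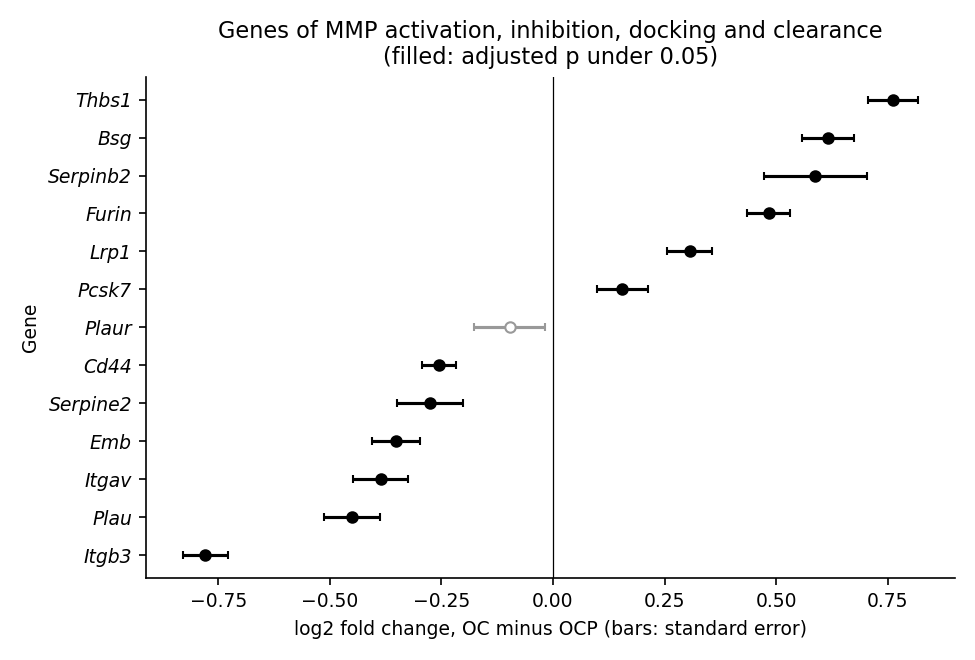
Log2 fold change (OC minus OCP) with standard error for 13 tested genes of MMP activation, inhibition, docking and clearance. The values run from -0.78 for Itgb3 to 0.76 for Thbs1, with 6 genes to the right and 7 to the left of 0, and Plaur (open symbol) was not called.

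The ADAM and ADAMTS proteases are metalloproteinases related to MMPs that shed membrane proteins or cut proteoglycans, and some are also inhibited by TIMP-3. The table held 23, of which 8 were tested, 5 rose, 2 fell and 1 did not pass, beside 23.5% higher and 32.1% lower over all tested genes. Adam8, the most abundant, rose from 51.0 ± 1.82 to 82.7 ± 3.59 RPKM (log2 fold change 0.69, adjusted p = 1.8e-05) and Adam15 from 19.9 ± 1.80 to 34.1 ± 1.32 RPKM (0.75, adjusted p = 6.3e-05). Adamts14, a procollagen N-proteinase, fell from 4.99 ± 0.149 to 2.68 ± 0.254 RPKM (-0.71, adjusted p = 7.5e-05). Adamts4, an aggrecanase, was at 0.579 ± 0.0158 and 1.54 ± 0.207 RPKM and passed the filter only through OC (0.68, adjusted p = 0.00021). Adam17, the sheddase of TNF, named after its values were seen, rose from 15.1 ± 1.40 to 24.5 ± 1.13 RPKM (0.67, adjusted p = 0.00013). Adam10 was at 16.1 ± 2.06 and 18.6 ± 0.739 RPKM and did not pass (adjusted p = 0.072), but it passed with TMM scaling (0.025), after quantile normalization (0.041), by voom (0.0043) and without OCP replicate 1 (0.012).

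Timp1 and Mmp13 are textbook targets of AP-1 factors. The immediate early and stress list holds genes of such factors beside other genes. In the windows searched above, Mmp13 had an AP-1 match and Timp1 had none. Of 11 tested genes of that list 8 rose, 1 fell and 2 did not pass. All 13 listed genes, tested or not, summed to 193 to 210.4 RPKM in OCP and 388 to 407 RPKM in OC. The AP-1 factor Junb had the highest mean over both groups, with 74.6 ± 4.42 and 96.6 ± 4.35 RPKM. Described after their values were seen, Atf3, a stress-induced factor, had 19.8 ± 1.03 and 123 ± 7.18 RPKM and was above Junb in OC. Ier3, an immediate early gene, went from 5.53 ± 0.691 to 51.4 ± 4.79 RPKM and the AP-1 gene Fosl1 from 2.71 ± 0.452 to 13.4 ± 0.525 RPKM (adjusted p = 3.0e-08 for Atf3, 2.3e-07 for Ier3 and 1.7e-06 for Fosl1). Atf3 and Ier3 made up most of the rise of the sum. The AP-1 genes Fos and Jun rose by 0.40 and 0.17 on the log2 scale. The gene that fell was Dnajb1, from 30.5 ± 1.68 to 26.0 ± 0.510 RPKM (-0.22, adjusted p = 0.0072). Ier2 (adjusted p = 0.64) and Hspa1a (adjusted p = 0.98) did not pass. The part of AP-1 factors, handling or stress in the rise of Timp1 and of the chromosome 9 genes was not tested.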

How the data were processed

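RNA was extracted with TRIzol and 2 ug went into a stranded mRNA library kit, per the labels' protocols. The submitters' processing notes list Trimmomatic 0.36, STAR 2.5.3a and featureCounts and name the human build GRCh38; the strand setting is not given in the sources used here. The authors deposited RPKM values, with mouse coordinates: 8 of the 10 members have the same start and end in GENCODE M21, so positions are given as GRCm38. RPKM times the exon length (in bases, per the file headers) and a library total gave whole reads for 100% of values within 0.01 reads. Of values of 3 to 6 reads, 75.6% to 79.8% per library were even, so reads are not independent molecules.

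Genes reaching 1 RPKM in 3 or more of 6 libraries were tested as log2(RPKM + 1) in limma 3.58.1 (R 4.3.3, statmod 1.5.0; trend and robust options, two-sided), with Benjamini-Hochberg adjustment over all tested genes and a threshold of 0.05. Fold changes on this scale understate the change of low genes. The steps were tested on simulated data with far fewer changed genes than were called here. That simulation did not test scaling under a broad change. As alternatives, the pseudocount was 0.1 or 0.01, the filter was dropped or raised to a mean of 5 RPKM, TMM or quantile scaling was used, the trend and robust options were dropped, the replicate number entered as a block, voom was run on recovered reads (at least 10 on average), and each library was left out. One gene of the list of MMP activation and inhibition is not reported here and was left out of its counts. Members and lists were chosen with earlier results of these data known. Named were all members, of the 4 protease and phosphatase lists the 4 called genes with the largest change and the most abundant gene, of each marker or stress list the most abundant gene, host and overlapping genes of members, and called genes of the chromosome 9 cluster; further genes of these lists were named by their role after their values were seen. Python 3.11.15, pandas 2.3.3 and matplotlib 3.10.9 were used.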

Additional observations from a re-analysis of the deposited data

How the results depend on the processing

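Timp1, Mmp9, Mmp14, Timp2 and Acp5 kept direction and call under all 15 alternatives, and Mmp12 and Mmp13 under all 14 in which they were tested. Mmp12 passed the filter only through OC, so settings that keep this filter could call it in no other direction. Its call was kept with no filter (log2 fold change 0.77, adjusted p = 0.00064) and by voom (1.70, adjusted p = 2.4e-10). The call of Mmp2 (log2 fold change 0.22) was lost with no filter (0.22), after quantile normalization (0.14) and in 4 of 6 fits that left out a library, which gave 0.18 to 0.28. Mmp19 passed with TMM factors (0.17), and Timp3 in the unfiltered fit once trend and robust options were dropped (0.13) and with voom (1.19); the cause was not tested. With a mean of at least 5 RPKM, where fewer genes were tested, 1645 genes were higher, against 2889. TMM factors gave 3314 higher and 3397 lower genes. The deviations of same-numbered libraries of both groups had correlations of -0.11, 0.14 and 0.01, and those of differently numbered libraries -0.28 to 0.26. With 3 libraries per group, these values cannot decide whether the numbers mark pairs. With the replicate number as a block 2827 genes were higher and 3851 lower, and the calls of the members were the same. Of 487 values of 33 other genes under alternatives, 7 lost and 4 gained a call, all of Pcsk7 and Adam10, and 0 reversed. Depth limits Timp3, Mmp2, Mmp12 and Mmp13, and leaving out a library tests 2 against 3. Leaving out each library, added after the data were seen, gave TIMP to MMP ratios of 0.120 to 0.127 in OCP and 0.608 to 0.618 in OC.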
